A study of Mus musculus with 53 samples.

Results

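The genes described here encode secreted growth factors and vasoactive peptides: Hbegf, Edn1, Igf1, Vegfa, Gdf15, Areg, Pdgfa and Pdgfb. They were taken by symbol, 1 locus each, and make up 8 of the 23847 loci in the expression tables. RNA-seq was done on 53 samples of bone marrow-derived macrophages (BMDMs) from mice aged 8 to 12 weeks, either wild-type (WT, 35 samples) or carrying a full-body knockout of Stat6 (Stat6-/-, 18 samples), all on the C57BL/6 background. Marrow cells of both genotypes were differentiated for 6 days with L929 supernatant, a source of M-CSF, and were left untreated or polarized with interleukin-4 (IL-4) at 20 ng/ml. Untreated controls were taken at 0, 1, 3, 6 and 24 hr and IL-4-treated cells at 1, 3, 6 and 24 hr, which gives 18 groups. WT groups held 4 samples, except IL-4 at 24 hr with 3 (replicates 2, 3 and 4), and each Stat6-/- group held 2. The study states that its WT time course came from 4 individual animals and gives n = 2 for Stat6-/-. What follows is how the transcripts of these genes changed with IL-4, time and loss of Stat6.

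These proteins act on neighboring cells through receptor tyrosine kinases or G protein-coupled receptors. Heparin-binding EGF-like growth factor (Hbegf) and amphiregulin (Areg) are membrane-anchored ligands of the EGF receptor that are released by shedding, whereas PDGF-A and PDGF-B, the products of Pdgfa and Pdgfb, form dimers that act on fibroblasts and pericytes. IL-4 signals in macrophages through the transcription factor STAT6 and drives alternative polarization, a state known for its links to tissue repair.

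Abundance is given as FPKM, the fragments assigned to a transcript scaled to its length and to the mapped total, so that levels can be compared between genes per length. In untreated WT cells at 0 hr the mean level was 183 FPKM for Igf1, 31.0 for Pdgfb, 5.91 for Vegfa, 4.39 for Gdf15 and 4.21 for Pdgfa (n = 4). Edn1 at 0.0763 and Hbegf at 0.0495 FPKM were close to the limit of detection. Areg was listed at 0 in 45 of 53 samples, and its highest value anywhere was 0.0447 FPKM, which stood for 2 fragments. It passed no filter on low values and was not tested, so 7 of the 8 genes entered the tests. A gene was called changed when the Benjamini-Hochberg adjusted p of limma was under 0.05 and the absolute log2 change, on the log2(FPKM + 1) scale, was at least 1. That scale understates the change of genes with low values.

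Stat6 itself was at 58.7 to 90.6 FPKM in WT and at 14.3 to 24.0 FPKM in Stat6-/- samples, with no overlap. Sequencing depth, recovered from low loci, ranged from 0.706 to 1.555 of the median sample, and 10017 to 10380 loci reached 1 FPKM per sample. The macrophage marker Csf1r was at 610 FPKM or more in every sample, and all 7 macrophage markers in the files exceeded 1 FPKM somewhere. Lyz2 was nevertheless listed at 0 in 7 samples, so a listed 0 need not mean an absent transcript. In WT at 24 hr the macrophage markers summed to 6644 to 8048 FPKM with IL-4 and to 21764 to 27824 in controls. At 1, 3 and 6 hr the ranges of this sum overlapped. By its median of 16500 FPKM, Lyz2 was the largest part of the sum, and the next highest marker, Emr1, reached 1840 FPKM. A sample with Lyz2 listed at 0 has a low sum for that reason, so the overlap of these ranges says little. The paper reports that IL-4 represses Lyz2 through STAT6. The part of this sum in the results was not tested. The stromal markers summed to at most 1.139 FPKM. Of the endothelial markers, Tie1, Tek and Emcn stayed under 0.1 FPKM, while Pecam1 reached 19, Vwf 13.6, Kdr 3.65 and Cdh5 0.284 FPKM. The 7 T cell and type 2 lymphoid markers summed to 26.2 to 121 FPKM, nearly all of it Il7r (24.6 to 121), while Gata3 reached 1.54 and Cd3e stayed under 0.1 FPKM. In WT this sum was 26.2 to 47.0 FPKM with IL-4 and 64.4 to 102 in controls at 3 hr, 35.7 to 47.2 against 63.7 to 90.4 at 6 hr, and 103 to 111 against 104 to 121 at 24 hr. The 5 B cell markers summed to 1.23 to 13.9 FPKM, mostly Cd79b, and at 24 hr in WT to 1.23 to 1.52 with IL-4 against 2.59 to 5.41 in controls. The part of these markers in the results was not tested. The summed level of 8 neutrophil and granulocyte precursor markers was 227 to 633 FPKM in WT and 601 to 1093 FPKM in Stat6-/- samples. Within WT it was 316 to 633 FPKM in controls and 227 to 550 FPKM with IL-4. In bulk RNA, fewer cells of a type and less RNA per cell cannot be told apart.

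IL-4 raised Hbegf, Edn1 and later Pdgfa in WT macrophages, raised Igf1 by less than 2-fold, and lowered Pdgfb, Gdf15 and Vegfa in overlapping waves. At 1 hr, 2 of the 7 tested genes were called higher (Hbegf, Edn1) and 2 lower (Pdgfb, Gdf15), where 1.09% and 0.395% of all tested loci were called. At 3 hr, 2 were higher (Hbegf, Edn1) and 2 lower (Vegfa, Pdgfb), against 2.61% and 1.27% of all loci. At 6 hr, 3 were higher (Hbegf, Edn1, Pdgfa) and 1 was lower (Vegfa), against 3.18% and 2.36%. The same genes were called in the same directions at 24 hr, against 3.91% and 4.58%. The median change over all tested loci lay between -0.07 and 0.01 in these comparisons. None of the 7 was called in Stat6-/- cells at any time.

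**Figure D1:**
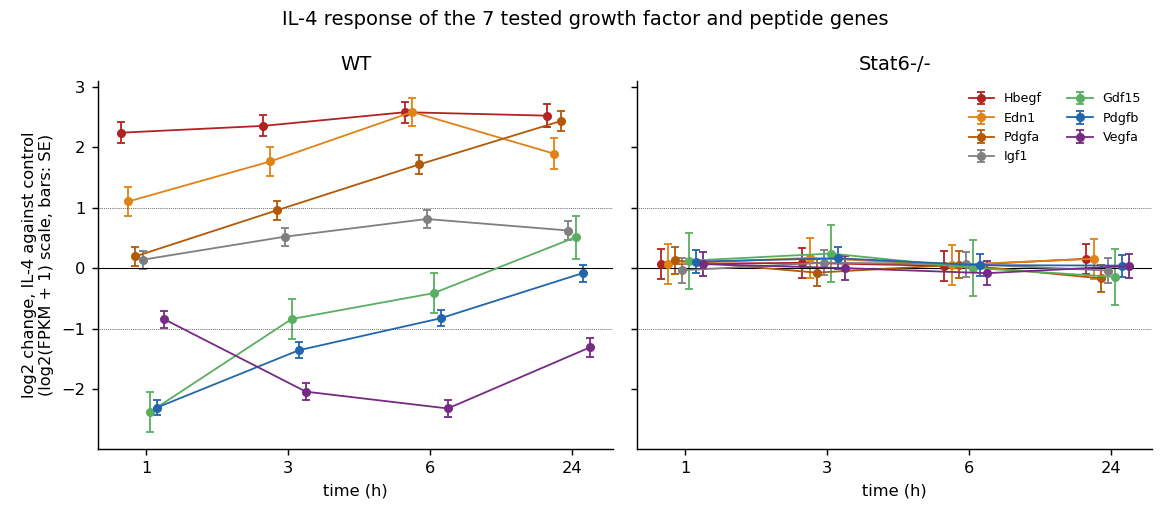
Log2 change with IL-4 against the control of the same time (y axis, log2(FPKM + 1) scale, bars are the standard error of the fit) by hours of treatment (x axis) for the 7 tested genes, in WT (left) and Stat6-/- cells (right); dotted lines mark a log2 change of 1 and -1. In WT, Hbegf was at 2.24 or more throughout while Pdgfb went from -2.30 at 1 hr to -0.08 at 24 hr, and in Stat6-/- cells all values lay between -0.17 and 0.24.

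Hbegf went from nearly undetectable to a plateau within the first hour. The gene lies on the minus strand of chromosome 18 from 36504927 to 36515805 (mm10). WT controls held 0 to 0.131 FPKM, which corresponds to 0 to 11 fragments per sample. With IL-4 the WT samples were at 3.38, 3.75, 3.64 and 4.81 FPKM at 1 hr, and at 4.51, 5.40, 3.81 and 3.68 FPKM at 3 hr. At 6 hr they were at 4.66, 9.36, 4.30 and 3.59 FPKM, and at 24 hr at 8.80, 4.19 and 3.58 FPKM. Every IL-4-treated WT sample was above every WT control. The log2 change was 2.24 ± 0.17 (SE) at 1 hr and 2.52 ± 0.19 at 24 hr, with adjusted p of 4.72e-13 and 6.68e-14 (limma). Pooled over samples and scaled to depth, the fragments were 107-fold higher at 1 hr (1567 against 13 fragments, exact 95% interval 62.6 to 202) and 195-fold higher at 6 hr (2438 against 11, interval 109 to 392). These intervals cover counting error only. Between 1 and 3 hr the change moved by 0.11 ± 0.25, between 3 and 6 hr by 0.23 ± 0.25 and between 6 and 24 hr by -0.06 ± 0.26, each smaller than its error.

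The rest of the EGF family did not move as one. Of 11 listed ligands, 4 were expressed well enough to be tested, and 1, 3, 2 and 1 of them, Hbegf included, rose at 1, 3, 6 and 24 hr. Their median log2 changes were 0.23, 1.33, 1.38 and 0.15. The neuregulins Nrg1 and Nrg2, ligands of the ERBB3 and ERBB4 receptors, were the others: Nrg1 rose at 3 hr (1.47 ± 0.11) and 6 hr (1.82 ± 0.11), and Nrg2 at 3 hr (1.19 ± 0.05). Nrg1 averaged 2.76 FPKM with IL-4 at 6 hr and 0.0518 in controls, but 0.406 against 0.253 FPKM at 24 hr. None of the 8 tested receptors and sheddases of 12 listed was called at any WT time, with median changes from 0.02 to 0.19. Over all tested loci 1.49%, 3.88%, 5.54% and 8.5% were called at 1, 3, 6 and 24 hr, shares that also stand beside the calls in the gene lists below. Adam17, the main sheddase of Hbegf, averaged 62.3 FPKM with IL-4 at 24 hr and 86.4 in controls.

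Edn1, which encodes the vasoconstrictor endothelin-1, also rose within the first hour, and its mean with IL-4 was highest at 6 hr. Its speed was not tested against that of Hbegf. It lies on the plus strand of chromosome 13 from 42301270 to 42307989 in the files. WT controls held 0.00984 to 0.124 FPKM, or 1 to 10 fragments. With IL-4 the WT samples were at 2.05, 1.57, 1.05 and 0.708 FPKM at 1 hr and at 3.22, 3.81, 1.56 and 1.86 FPKM at 3 hr. They reached 5.62, 9.30, 4.96 and 2.74 FPKM at 6 hr and were at 7.09, 1.77 and 1.56 FPKM at 24 hr. All of these exceeded every WT control, but samples of 1 group spread by up to 4.54-fold. The log2 change was 1.10 ± 0.23 at 1 hr (adjusted p = 0.000772, limma), 1.77 ± 0.23 at 3 hr, 2.58 ± 0.23 at 6 hr and 1.89 ± 0.25 at 24 hr (7.3e-08). Leaving out replicate 1 of WT IL-4 at 1 hr brought the first of these to 0.97, under the threshold of 1. The change moved by 0.66 ± 0.33 between 1 and 3 hr (adjusted p = 0.237, limma) and by 0.82 ± 0.33 between 3 and 6 hr (0.238). Between 6 and 24 hr it moved by -0.69 ± 0.35 (0.138), and no step was called. Pooled fragments were 24.3-fold higher at 1 hr (574 against 21, exact 95% interval 15.8 to 39.6) and 156-fold higher at 6 hr (2475 against 14, interval 92.8 to 286).

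The Edn1 promoter is shown because it was the only one among the genes with a promoter in the reference that held the palindrome TTCNNNNGAA, the spacing that STAT6 prefers. RefSeq windows (GRCm38.p6, the mm10 assembly) from 250 bases before to 50 after the transcription start were at hand for 6 of the 8 genes (9 windows), and 6.95% of all 32851 windows held this motif on either strand. The match, in capitals, covers bases -185 to -176 from the start, chr13:42301291-42301300, and reads on both strands. It lies in no annotated GENCODE exon but inside the interval the files give for Edn1. The window is chr13:42301226-42301525, plus strand, 5′ to 3′. A match in the letters is a description and no evidence of binding.
Edn1: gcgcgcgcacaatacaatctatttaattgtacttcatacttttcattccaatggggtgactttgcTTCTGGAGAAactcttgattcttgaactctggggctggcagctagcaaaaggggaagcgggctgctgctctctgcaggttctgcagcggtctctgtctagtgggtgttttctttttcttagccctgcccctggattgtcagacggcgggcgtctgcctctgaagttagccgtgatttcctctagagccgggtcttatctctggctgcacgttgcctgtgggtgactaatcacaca
The related palindrome TTCNNNGAA was in 8.3% of all windows and in none of these genes, and the AP-1 motif TGANTCA was in 7.81% and in Igf1.

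Among the 4 tested genes of the endothelin system (8 listed), Edn1 rose at all 4 times and Ece1, the enzyme that cleaves big endothelin-1 to its active form, fell at 24 hr. Ece1 went from 7.13 to 2.60 FPKM on average, a log2 change of -1.18 ± 0.12 (adjusted p = 1.8e-10, limma). The median changes of the system were 0.50, 0.45, 0.35 and 0.18 at 1, 3, 6 and 24 hr. Of the other vasoactive peptides and their processing genes, 4 of 22 could be tested. Calcrl, the receptor subunit for adrenomedullin and CGRP, was the only call, lower at 6 hr with a log2 change of -1.28 ± 0.18 (13.3 FPKM in controls, 4.84 with IL-4).

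**Figure D2:**
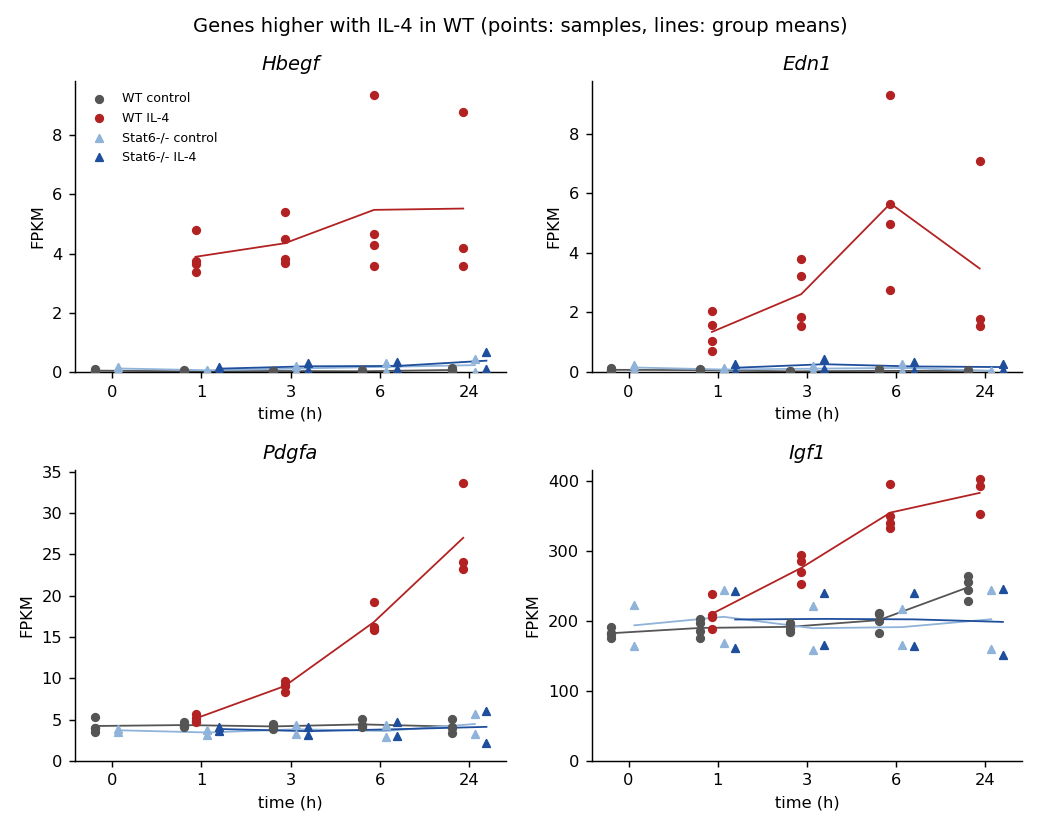
FPKM (y axes, linear, from 0) by time (x axes, hours) for Hbegf, Edn1, Pdgfa and Igf1; each point is a sample, lines join group means, circles are WT and triangles Stat6-/-. WT IL-4 samples of Pdgfa climbed from 4.72 to 5.73 FPKM at 1 hr to 23.2 to 33.7 at 24 hr, while all Stat6-/- samples stayed between 2.20 and 6.02.

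The PDGF chains went in opposite directions. Pdgfa (chromosome 5, 138976972 to 138994953, minus strand) was at 3.37 to 5.34 FPKM in WT controls. IL-4-treated WT samples were at 5.21, 4.72, 5.73 and 4.82 FPKM at 1 hr, overlapping the controls of that time, and at 9.16, 8.39, 9.64 and 9.02 FPKM at 3 hr. They were at 16.0, 19.3, 15.8 and 16.2 FPKM at 6 hr and at 33.7, 23.2 and 24.1 FPKM at 24 hr. From 3 hr on, every treated sample was above every control. The log2 change was 0.20 ± 0.16 at 1 hr (adjusted p = 0.546, limma), 0.96 ± 0.16 at 3 hr (4.64e-06, under the 2-fold threshold), 1.72 ± 0.16 at 6 hr and 2.44 ± 0.17 at 24 hr (7.26e-15). In mean FPKM this was 3.81-fold at 6 hr and 6.52-fold at 24 hr.

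Pdgfb (chromosome 15, 79995876 to 80014808, minus strand) fell at once and then returned. WT controls at 1 hr held 31.3, 29.4, 31.9 and 24.8 FPKM, and treated samples 5.17, 5.34, 6.10 and 4.09 FPKM, or 17.6% of the control mean. The treated samples were at 13.6, 11.9, 13.8 and 10.4 FPKM at 3 hr and at 16.3, 21.7, 17.1 and 15.7 FPKM at 6 hr. At 24 hr they were at 40.9, 26.8 and 23.3 FPKM, among controls at 31.5, 32.9, 33.3 and 27.3 FPKM. Treated samples were below all controls of their time at 1, 3 and 6 hr and overlapped them at 24 hr. The log2 change was -2.30 ± 0.13 at 1 hr (adjusted p = 2.9e-17, limma), -1.35 ± 0.13 at 3 hr, -0.82 ± 0.13 at 6 hr (1.76e-06, under the 2-fold threshold) and -0.08 ± 0.14 at 24 hr (0.657). The response differed between 1 and 3 hr by 0.95 ± 0.18 (adjusted p = 0.00028) and between 6 and 24 hr by 0.75 ± 0.19 (0.00268), both short of 2-fold.

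The ratio of Pdgfb to Pdgfa, both per length, was 5.36 to 9.77 in WT controls and 0.848 to 1.48 in WT samples with IL-4 at every time. Its group means with IL-4 were 1.01 ± 0.12 at 1 hr, 1.37 ± 0.15 at 3 hr, 1.05 ± 0.07 at 6 hr and 1.11 ± 0.13 at 24 hr (SD). The low ratio came from low Pdgfb at 1 hr and from high Pdgfa at 24 hr. Stat6-/- samples held ratios of 4.4 to 12.7 with or without IL-4. Pdgfc, another PDGF ligand, rose at 3 hr by 1.23 ± 0.09, from 0.713 to 3.03 FPKM on average. It was the other call among the 4 tested genes of the PDGF system (9 listed), whose median changes were 0.03, 0.47, 0.53 and -0.06.

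Igf1, insulin-like growth factor 1, was the most abundant of these transcripts and changed by less than 2-fold. It lies on chromosome 10 from 87859056 to 87937047, plus strand. WT controls were at 175 to 212 FPKM up to 6 hr and at 228, 264, 256 and 244 FPKM at 24 hr. Treated WT samples were at 188, 206, 208 and 239 FPKM at 1 hr, at 254, 270, 294 and 286 at 3 hr, at 334, 341, 350 and 396 at 6 hr and at 354, 404 and 393 at 24 hr. From 3 hr on no treated sample overlapped the controls of its time. The log2 changes of 0.52 ± 0.15, 0.81 ± 0.15 and 0.62 ± 0.16 at 3, 6 and 24 hr had adjusted p of 0.00533, 1.8e-05 and 0.0011 (limma). In absolute terms the mean rose by 1.76-fold at 6 hr, from 201 to 355 FPKM. Of the IGF system, 7 of 17 listed genes were tested. Irs2, an adaptor of the insulin and IGF-1 receptors, rose at 1 hr (1.10 ± 0.10), and Igfbp4, an inhibitory IGF-binding protein, fell at 24 hr from 104 to 14.4 FPKM on average (-2.77 ± 0.46). The median changes of the system were 0.08, -0.25, -0.29 and -0.07.

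**Figure D3:**
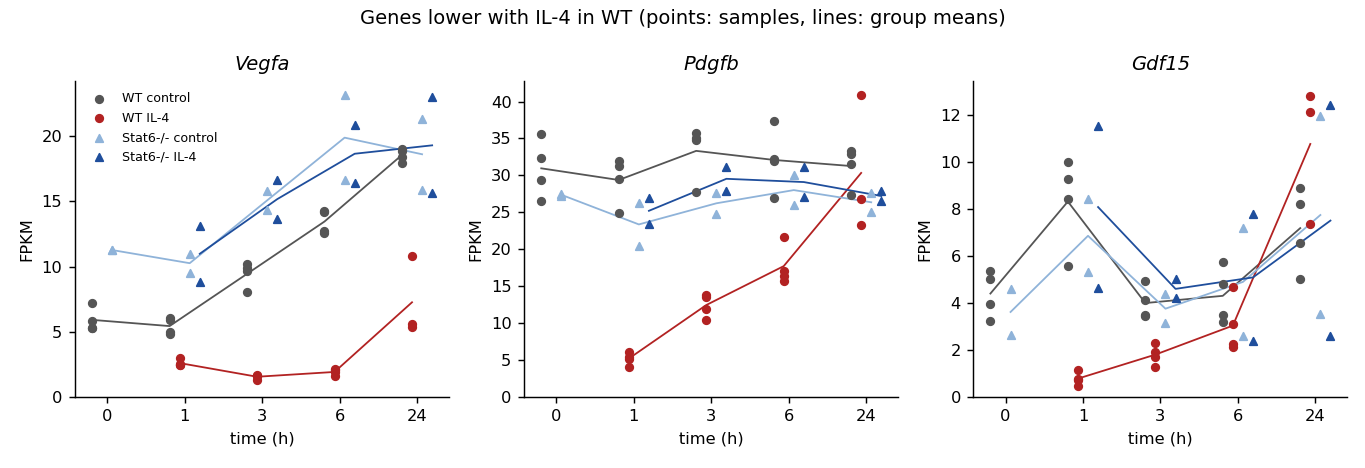
FPKM (y axes, linear, from 0) by time (x axes, hours) for Vegfa, Pdgfb and Gdf15; each point is a sample, lines join group means, circles are WT and triangles Stat6-/-. Vegfa rose with time in untreated WT cells to 17.9 to 19.1 FPKM at 24 hr and stayed at 1.31 to 2.97 FPKM with IL-4 up to 6 hr, and Pdgfb and Gdf15 were lowest with IL-4 at 1 hr.

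Vegfa, the main endothelial growth factor, climbed in untreated WT cells with time in culture and did not climb with IL-4 until after 6 hr. It lies on chromosome 17 from 46016993 to 46032377, minus strand. WT controls were at 5.28 to 7.20 FPKM at 0 hr, at 9.65, 9.86, 8.02 and 10.2 FPKM at 3 hr, at 14.3, 14.2, 12.8 and 12.6 at 6 hr and at 19.1, 17.9, 18.4 and 18.9 at 24 hr. Against 0 hr, the control change was 1.07 ± 0.14 at 6 hr (adjusted p = 1.96e-05, limma) and 1.51 ± 0.14 at 24 hr (1.29e-09). Vegfa was the only one of the 7 genes called there, and 0.0179% and 0.377% of all loci were called higher. Igf1 was at 0.44 ± 0.15 at 24 hr (0.0344), under the 2-fold threshold.

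With IL-4, Vegfa was at 2.41, 2.52, 2.45 and 2.97 FPKM at 1 hr, at 1.57, 1.31, 1.57 and 1.71 at 3 hr and at 1.88, 2.02, 1.56 and 2.17 at 6 hr. These samples were below the 0 hr controls as well as below the controls of their time. At 24 hr the treated samples were at 10.8, 5.58 and 5.36 FPKM, still below every control of that time. The log2 change was -0.84 ± 0.14 at 1 hr (adjusted p = 2.09e-05, limma, under the 2-fold threshold), -2.04 ± 0.14 at 3 hr, -2.32 ± 0.14 at 6 hr (7.42e-17) and -1.31 ± 0.15 at 24 hr (3.26e-09). In mean FPKM the treated level was 14.2% of control at 6 hr and 39.1% at 24 hr.

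The VEGF ligands and their receptors moved in both directions. Of 8 tested genes of 11 listed, Vegfa included, 3 rose and 3 fell at 3 hr, 3 rose and 2 fell at 6 hr, and 1 rose and 1 fell at 24 hr, with none called at 1 hr. Vegfa was 1 of those that fell at each of these times and the only one at 24 hr. Among all tested loci, 1.49%, 3.88%, 5.54% and 8.5% were called at 1, 3, 6 and 24 hr. The median changes of the VEGF genes were 0.00, 0.13, 0.28 and 0.06. Flt1, the high-affinity receptor VEGFR1, rose by 2.53 ± 0.17, 4.27 ± 0.17 and 3.89 ± 0.18 at 3, 6 and 24 hr, from 0.325 to 24.8 FPKM on average at 6 hr. Pgf, placental growth factor, a ligand of VEGFR1, rose by 1.35 ± 0.08 and 2.19 ± 0.08 at 3 and 6 hr and was at -0.04 ± 0.08 at 24 hr. Vegfc, best known for lymphatic growth, rose by 1.79 ± 0.13 and 1.37 ± 0.13 at 3 and 6 hr. The co-receptor Nrp1 fell at the same times, with changes of -1.33 ± 0.11 and -1.89 ± 0.11, and averaged 89.8 FPKM with IL-4 against 80.3 in controls at 24 hr. Kdr, or VEGFR2, also a marker of endothelial cells, was called lower at 3 hr (-1.01 ± 0.36).

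**Figure D4:**
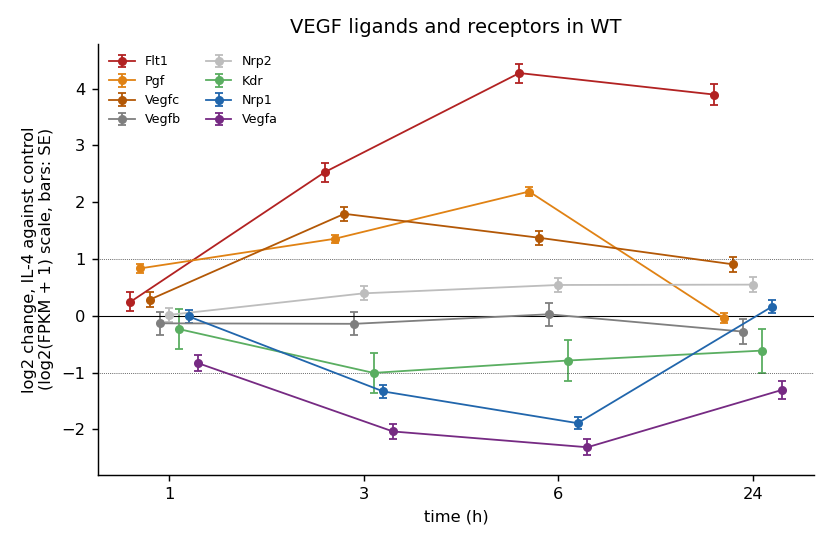
Log2 change with IL-4 against the control of the same time in WT cells (y axis, log2(FPKM + 1) scale, bars are the standard error) by hours of treatment (x axis) for the 8 tested VEGF ligands and receptors; dotted lines mark 1 and -1. Flt1 reached 4.27 at 6 hr, when Vegfa was at -2.32 and Nrp1 at -1.89.

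Genes of the hypoxia response, which often move with Vegfa, were looked at beside it. None of 13 tested genes (14 listed) was called at 1, 3 or 6 hr, where 1.49%, 3.88% and 5.54% of all loci were. So few genes would show a share of that size poorly. Their median changes were 0.10, 0.13 and 0.05. At 24 hr, when Vegfa was still lower, the glucose transporter Slc2a1 (1.52 ± 0.22), the hypoxia-inducible Ankrd37 (1.13 ± 0.28) and hexokinase Hk2 (1.07 ± 0.14) rose and Ndrg1 fell (-1.64 ± 0.23), with a median of 0.27. Over all tested loci 8.5% were called at that time.

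Gdf15, a stress-induced cytokine of the TGF-beta superfamily, fell within the first hour and then returned. It lies on chromosome 8 from 70629394 to 70631635, minus strand. WT controls were at 8.41, 5.55, 9.27 and 9.98 FPKM at 1 hr and at 3.24 to 5.37 FPKM at 0 hr. With IL-4 the samples were at 0.762, 0.470, 1.14 and 0.717 FPKM at 1 hr, at 1.91, 1.28, 2.30 and 1.69 at 3 hr, at 2.24, 2.10, 3.11 and 4.66 at 6 hr and at 7.35, 12.1 and 12.8 at 24 hr. Treated samples were below all controls of their time at 1 and 3 hr and overlapped them at 6 and 24 hr. The log2 change was -2.38 ± 0.33 at 1 hr (adjusted p = 6.28e-07, limma), -0.84 ± 0.33 at 3 hr (0.0518), -0.41 ± 0.33 at 6 hr (0.336) and 0.52 ± 0.36 at 24 hr (0.221). These later values depend on whether the replicate number is in the fit. With it as a block, the adjusted p of limma was 0.000194 at 3 hr, 0.05 at 6 hr and 0.0206 at 24 hr. The last of these was a rise (0.51 ± 0.19), and all 3 changes stayed under 2-fold. In mean FPKM the treated level at 1 hr was 9.31% of control. Of 8 tested stress genes that often accompany Gdf15 (10 listed), the cell cycle inhibitor Cdkn1a rose at 1, 3 and 6 hr (1.31 to 1.67) and the stress factor Atf3 at 24 hr (1.22 ± 0.19), with median changes of -0.15, -0.06, 0.25 and 0.55.

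Of the other macrophage growth factors, 8 genes were tested (18 listed), with 1 called at 6 hr and 1 at 24 hr. Over all tested loci 5.54% and 8.5% were called at these times. Csf1, which encodes M-CSF, rose at 6 hr (1.11 ± 0.15), from 0.641 to 2.56 FPKM, and oncostatin M (Osm) fell at 24 hr (-1.33 ± 0.12).

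The change of the IL-4 response from 1 time to the next was tested directly. Between 1 and 3 hr, 2 of the 7 genes were called, Vegfa (-1.20 ± 0.20, adjusted p = 3.15e-05, limma) and Gdf15 (1.54 ± 0.47, 0.0234), where 1.61% of all loci were. The Gdf15 call had an adjusted p of 0.0538 without replicate 2 of WT IL-4 at 1 hr and 0.0516 without replicate 3 of WT IL-4 at 3 hr. None was called between 3 and 6 hr, where 0.449% of loci were. Pdgfa had the largest step there among those with an adjusted p under 0.05 (0.76 ± 0.22, 0.0473). Between 6 and 24 hr only Vegfa was called (1.01 ± 0.21, 0.000224), where 6.06% of loci were. Without replicate 2 of WT IL-4 at 24 hr, this Vegfa step was 0.72 and the fall of Edn1 was called (-1.23, adjusted p = 0.00152).

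That replicate stood apart from the other two for several of these genes. At 24 hr it was the highest of the 3 treated WT samples for Hbegf, Edn1, Pdgfa, Vegfa and Pdgfb, and the lowest for Gdf15 and Igf1. At 6 hr replicate 2 was also the highest of 4 for Hbegf, Edn1, Pdgfa and Pdgfb. Its summed neutrophil markers at 24 hr were 227 FPKM against 329 and 257 FPKM in replicates 3 and 4, and its summed epithelial markers, mostly Cdh1, 4.39 against 2.30 and 1.92 FPKM. Their part in the result was not tested. Without it, the 24 hr changes were 2.19 for Hbegf, 1.36 for Edn1, 2.27 for Pdgfa and -1.60 for Vegfa, and all 4 stayed called. The summed epithelial markers were 0.0065 to 0.197 FPKM in all WT controls and 0.852 to 4.39 FPKM in WT with IL-4. The summed endothelial markers were 5.84 to 10.1 and 6.93 to 24.3 FPKM. Over all samples their members Pecam1 and Vwf reached 19 and 13.6 FPKM, while Tie1, Tek and Emcn stayed under 0.1 FPKM.

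In Stat6-/- macrophages, 0 of the 7 genes were called with IL-4 at 1, 3, 6 or 24 hr, where limma called 0% of all loci at each time. At an unadjusted p under 0.05 there were 51, 131, 88 and 37 of 11146 loci and none of these 7 genes, and the analysis of variance with Tukey's adjustment called none of them either. The log2 changes lay between -0.17 and 0.24, with standard errors of 0.18 to 0.47 on 2 samples a group. Hbegf was at 0.0128 to 0.456 FPKM in Stat6-/- controls and at 0.0665 to 0.677 with IL-4, and Edn1 at 0.0203 to 0.259 and 0.0297 to 0.427. Between Stat6-/- samples of the same replicate number and time, Hbegf was higher with IL-4 in 8 of 8, by 0.00467 to 0.221 FPKM, Pdgfb in 8 of 8, by 0.254 to 3.55 FPKM, and Edn1 in 7 of 8. The other 4 genes were higher in 3 to 5 of 8. These 8 pairs are 2 replicate numbers at 4 times and are not independent, and the share over all loci was not computed. With the replicate number as a block none of the 7 genes was called either. Pooled Stat6-/- fragments gave ratios of IL-4 to control with an exact 95% interval above 1 (counting error only) in 3 of 8 cases. These were Edn1 at 3 hr (2.05, interval 1.19 to 3.63), Edn1 at 24 hr (4.02, 1.67 to 11.7, from 35 and 6 fragments) and Hbegf at 24 hr (1.77, 1.15 to 2.79). Of the 35 Edn1 fragments 29 came from replicate 2, and of the 77 Hbegf fragments with IL-4 at 24 hr 67 came from replicate 1. For comparison, the lowest pooled ratio in WT was 76.6 for Hbegf and 24.3 for Edn1.

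The difference between the genotypes in the IL-4 response was tested as an interaction. It was called for Hbegf, Pdgfb and Gdf15 at 1 hr, for Hbegf, Edn1, Pdgfa, Vegfa and Pdgfb at 3 hr, and for Hbegf, Edn1, Pdgfa and Vegfa at 6 and 24 hr (3, 5, 4 and 4 of 7). Over all tested loci, 1.25%, 3.48%, 4.41% and 6.85% were called. The largest was Pdgfa at 24 hr, 2.60 ± 0.28 (adjusted p = 3.82e-09, limma). For Igf1 it was 0.75 ± 0.25 at 6 hr (0.0376) and 0.66 ± 0.26 at 24 hr (0.0556), neither called. With the replicate number as a block, Igf1 was at 0.43 ± 0.09, 0.75 ± 0.09 and 0.63 ± 0.09 at 3, 6 and 24 hr. The adjusted p of limma was then 0.00032, 2.02e-08 and 8.42e-07, and all stayed under 2-fold. For Gdf15 at 1 hr it was 1.55e-07 with that block. The Gdf15 call at 1 hr was lost without Stat6-/- IL-4 replicate 1 (-1.93, adjusted p = 0.123) or without Stat6-/- control replicate 2 (0.0582). The Pdgfa call at 3 hr was lost without Stat6-/- IL-4 replicate 2 (0.87, 0.0769) or control replicate 1 (0.88, 0.0791).

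Without IL-4, Vegfa was higher in Stat6-/- than in WT cells up to 6 hr. Stat6-/- controls were at 11.3 and 11.3 FPKM at 0 hr, at 11.0 and 9.53 at 1 hr, at 15.8 and 14.3 at 3 hr and at 23.1 and 16.6 at 6 hr. All of these were above every WT control of the same time, by 1.91-fold in the mean at 0 hr and 1.48-fold at 6 hr. At 24 hr the genotypes overlapped, with a mean of 18.6 FPKM in both. Averaged over the 5 control times the log2 difference, Stat6-/- minus WT, was 0.56 ± 0.08 for Vegfa (adjusted p = 1.08e-06, limma) and -0.25 ± 0.07 for Pdgfb (0.00998). Neither reached 2-fold, so 0 of the 7 genes were called, and 0.287% of all loci were. The time-by-genotype difference was not tested, and if the replicate numbers mark animals, these 10 Stat6-/- controls come from 2 animals and the p is too small. The neutrophil markers were also higher in Stat6-/- than in WT controls (601 to 1093 against 316 to 633 FPKM), and their part in the result was not tested.

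The replicates of the Stat6-/- groups differed from each other in the same direction throughout. Replicate 1 was the higher one in all 9 groups for Hbegf, Igf1, Vegfa and Gdf15, in 7 of 9 for Pdgfa, and in 1 of 9 for Edn1 and Pdgfb. Igf1 was at 218 to 246 FPKM in replicate 1 and at 152 to 168 in replicate 2, and Gdf15 at 4.35 to 12.4 and 2.37 to 5.30.

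The genes whose pattern over the 18 group means (log2(FPKM + 1)) was most like each of these differed between them. For Hbegf they included Irf4 and Clec7a (Pearson r of 0.987 and 0.978). For Edn1 they were Slc7a2, Tmem26 and Tarm1 (0.987, 0.986 and 0.982). For Pdgfa they were Arhgap6, Matk and Retnla (0.991, 0.990 and 0.986). The genes that fell had weaker matches. Vegfa was most like H6pd, Lpin2 and Ankrd33b (0.951, 0.944 and 0.942), Pdgfb like Trim8, Zfp36l2 and Gse1 (0.959, 0.956 and 0.951) and Gdf15 like Klf10, Rusc2 and Tgif1 (0.929, 0.868 and 0.839). All groups share these libraries, and the values are descriptions.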

How the data were processed

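Poly(A) RNA libraries were sequenced by the study from 53 samples. Per the labels, the authors processed reads with TopHat2 (2.0.7) and Cufflinks (2.0.2) on mm10, and deposited FPKM values per locus and sample, with no replicates pooled. FPKM of 11146 of 23847 loci (1 FPKM or more in some sample) were set to log2(FPKM + 1) and fitted in limma (3.58.1, R 4.3.3) with 1 mean per group over all 53 samples (35 residual degrees of freedom, eBayes with trend, Benjamini-Hochberg per comparison, two-sided). The main fit had no term for a shared animal. Calls needed an adjusted p under 0.05 and a 2-fold change. The fit was tested on simulated data. Relative depth was recovered from 5454 loci under 1 FPKM, and 100% of Hbegf, Edn1 and Areg values of 1 to 20 fragments were whole within 0.1 fragments. No 2 samples held identical values. The genes and lists were chosen with earlier results of these data known. Named besides the 8 genes were Stat6, the 3 most similar loci per called gene (1 for Hbegf is not reported here) and up to 4 called genes per list by size; Adam17, Kdr and uncalled values of list genes were named after their values were seen. Alternatives were a pseudocount of 0.1, no filter, quantile normalization, only the samples compared, a replicate block, Tukey's adjustment and leaving out each sample. WT IL-4 replicate 1 at 24 hr was not analysed here.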

Additional observations from a re-analysis of the deposited data

Results flagged for a closer look

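Among 60 sets of 4 WT samples with any spread, 6 held a sample far from the others by Dixon's criterion, where chance gives about 3. Hbegf was at 0.0776 FPKM in WT control replicate 4 at 6 hr and at 0.00938 to 0.0131 in the others, 8 fragments against 1 each. Pdgfa was at 19.3 FPKM in WT IL-4 replicate 2 at 6 hr (others 15.8 to 16.2), and Pdgfb at 27.7 FPKM in WT control replicate 4 at 3 hr (others 34.8 to 35.8). Areg was at 0.0261 FPKM in replicate 1 at 0 hr, 0.0159 in replicate 4 at 1 hr and 0.0232 in replicate 2 at 24 hr of the WT controls, 1 fragment each, with the others listed at 0. A single value above 0 among values of 0 is always flagged. The Areg flags therefore carry no information, and the figure for chance does not cover them.

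WT and Stat6-/- cells had unlike IL-4 responses by the tested interaction, given here as the WT minus the Stat6-/- log2 change. At 1 hr it was 2.17 for Hbegf, -2.42 for Pdgfb and -2.50 for Gdf15. At 3 hr it was 2.26 for Hbegf, 1.59 for Edn1, 1.03 for Pdgfa, -2.04 for Vegfa and -1.52 for Pdgfb. At 6 hr it was 2.54 for Hbegf, 2.53 for Edn1, 1.66 for Pdgfa and -2.24 for Vegfa. At 24 hr it was 2.37 for Hbegf, 1.74 for Edn1, 2.60 for Pdgfa and -1.35 for Vegfa.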

How the results depend on the processing

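Of 346 recomputed counts of called genes, 338 stayed within 1.5 times the reported count, and no change with an adjusted p under 0.05 turned its direction. With a pseudocount of 0.1 the interaction at 1 hr gave 5 calls in place of 3, adding Edn1 (2.79) and Vegfa (-1.11). Without the filter on low values the step from 1 to 3 hr gave 1 call in place of 2 (Gdf15, adjusted p = 0.0556). Leaving out 1 sample at a time gave 1 to 3 calls for that step (Pdgfb was the third, just past the 2-fold threshold, without WT IL-4 replicate 3 or control replicate 4 at 1 hr or IL-4 replicate 4 at 3 hr) and 0 to 1 for the step from 6 to 24 hr. Vegfa, the 1 call there, was at 0.99 without WT control replicate 2 at 24 hr, 0.95 without WT IL-4 replicate 3 at 6 hr, and 0.98 without WT control replicate 1 or 2 at 6 hr. The 0.1 pseudocount also brought Vegfa at 1 hr (-1.04), Gdf15 at 3 hr (-1.12) and Pdgfa at 3 hr (1.10) in WT past the 2-fold threshold. Quantile normalization brought the Pdgfa interaction at 3 hr to 0.99, and fitting only the samples compared left the Edn1 interaction at 24 hr at an adjusted p of 0.0615 and called that of Gdf15 at 3 hr (-1.08, 0.0148). Leaving out Stat6-/- IL-4 replicate 1 at 24 hr called the interaction there for Igf1 (1.01) and Gdf15 (1.61). Over single samples left out, the Gdf15 value there, not called as reported (0.66), ran from -0.29 without Stat6-/- IL-4 replicate 2 to that 1.61. At 24 hr the Stat6-/- controls held 11.9 and 3.52 FPKM of Gdf15 in replicates 1 and 2. With IL-4 these replicates held 12.4 and 2.59 FPKM. Leaving out 1 of these samples sets a single replicate against both replicates of the other treatment. The cause of the range was not tested. Tukey's adjustment was run only for IL-4 against control within each genotype, and none of those 8 counts changed. The interactions, steps, control times and genotype comparison were not put through it.

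Same-numbered WT samples deviated together in part (111 of 136 pairs with a correlation over 0.1, lowest -0.145), and no source used here says that a number marks an animal. In Stat6-/- groups of 2 samples the deviations of the 2 replicates are mirror images, so the 72 pairs hold 36 distinct correlations. All of them were over 0.1 (lowest 0.425). With the replicate block, the interaction gave 4 calls at 1 hr (Edn1 added, 1.03, adjusted p = 0.0454) and 6 at 3 hr (Gdf15 added, -1.08, 0.00866), and the other counts were as reported. The genotype comparison in controls has no block, since a number is shared by no animal of both genotypes. Depth limits Areg, and the Hbegf and Edn1 controls, to a few fragments.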
